A study of Homo sapiens with 16 samples.

Results

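The genes that build ribosomes were followed over 45 h in SUM-225 cells treated with an inhibitor of the HER2 kinase. The genes were chosen by name, with earlier results of these data known: 42 symbols of factors that make, modify, fold or assemble ribosomal RNA. The shares of genes given below therefore describe the group and are not an independent test of its course. Of these, 37 had a probe under that symbol, and 34 had a probe that was detected (p under 0.05) on 3 or more of the 16 arrays, the condition for a probe to be tested. The table held 24526 probes, of which 16110 probes of 13108 genes were tested. NPM1 and TSR1 were detected on 0 arrays and NPM3 on 2, so these 3 genes were not tested. PNO1, RRP1, RRP12, RRP9 and WDR43 had no probe under those symbols. Of the 34 tested genes, 30 were detected on all 16 arrays, WDR3 on 13, TCOF1 on 10, and POLR1A and POLR1B on 7 each.

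SUM-225 is a line from a breast cancer with amplification and over expression of HER2. CP724,714, a small molecule that blocks the HER2 kinase, was added at 1 µM, and RNA from a separate culture was taken every 3 h up to 45 h. Each of the 16 time points is 1 culture on 1 Illumina bead array, all of the same line and treatment. The labels give a medium with serum, insulin and hydrocortisone, whereas the study's methods describe a serum-free medium without insulin for this line, so the medium of these cultures is uncertain. Without an untreated course, effects of the inhibitor cannot be told apart from those of culture time and of handling at the start. No time point had a replicate, and errors come from neighbouring time points. A difference from 0 h rests on the single 0 h array, which was assumed to vary like the later ones.

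Ribosomes are assembled in the nucleolus. RNA polymerase I transcribes the precursor of ribosomal RNA, small nucleolar ribonucleoproteins (snoRNPs) modify it, and separate groups of factors cleave, fold and assemble the small and the large subunit. The work is a large part of the biosynthesis of a growing cell, growth factor signalling stimulates it, and the transcription factor MYC is known to activate many of its genes.

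The median signal of the arrays lay between 242 and 384, and 57.5% to 61.5% of probes were detected. All 7 markers of a luminal line with HER2 amplification (ERBB2, GRB7, KRT8, KRT18, KRT19, TACSTD1 and CDH1) were detected on all 16 arrays. Of 5 markers of other cells, PTPRC and COL3A1 were detected on 0 arrays, CD3E on 1, COL1A1 on 5 and PECAM1 on 16, the last at normalized log2 signals of 6.94 to 8.15. Consecutive arrays were treated as sets of 4, starting at 0, 12, 24 and 36 h. The sets follow earlier results of these data and were not tested here, and no batch is named in the labels. A set and its hours cannot be told apart, so that the steps that end at 12, 24 and 36 h each cross from a set to the next. Each value below is a normalized log2 signal or a difference of log2 signals, and levels are not compared between genes.

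The members shared an early drop. The median over the 34 genes, as the log2 difference from 0 h, was -0.10, -0.61 and -0.67 on the arrays of 3, 6 and 9 h. On these arrays 29, 32 and 33 of the 34 genes lay below their 0 h value, against 47.9% of all probes at 9 h. Arrays are scaled to each other, so a fall in all RNA per cell would not show, and fewer cells of a kind and less RNA per cell cannot be told apart. At 6 h 18 members were already at least 1.5-fold below 0 h (background 9.85%), and at 3 h there were 3, RRS1, LYAR and IMP3 (background 5.0%). The median over all tested probes stayed between 0.01 and 0.04 at every later time point. At 9 h, 20 members were at least 1.5-fold below 0 h, which was 58.8% of them against 10.8% of all probes. The steepest single step was that from 3 to 6 h, at which 33 of 34 members went down, with a median of -0.39 (0.00 for all probes). Of all probes 50.5% went up at that step. All of these hours lie within the same set of arrays.

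Between 9 and 12 h the course turned upwards. At that step 28 of 34 members went up (82.4%, against 51.6% of all probes), with a median of 0.30 and a range of -0.34 to 0.88 (0.01 for all probes). A rise of at least 1.25-fold was found in 16 members, or 47.1%, against 18.0% of probes. The 9 h array was the lowest of those from 0 to 21 h in 16 members, against 11.6% of probes. The mean of the 12 and 15 h arrays exceeded that of the 6 and 9 h arrays by a median of 0.14, so that the size of the rise depends on the arrays taken. The step lies between arrays of different sets, its difference is that of 1 array from 1 other, and it was not tested.

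After 12 h the joint course was shallow. The median difference from 0 h was -0.42, -0.66 and -0.59 at 18, 24 and 45 h. At 45 h 31 of 34 members were still below their 0 h value, against 7568 of all 16110 probes. The step from 21 to 24 h, also between sets, went down in 31 members with a median of -0.18. Of all probes 48.7% went up at that step, with a median of -0.01. Over the whole course 27 members had their highest signal of all 16 arrays at 0 h, or 79.4% against 12.3% of all probes. Every array from 6 h on was below the 0 h array in 30 members, or 88.2% against 15.9%. These shares all rest on the same 0 h array.

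**Figure D1:**
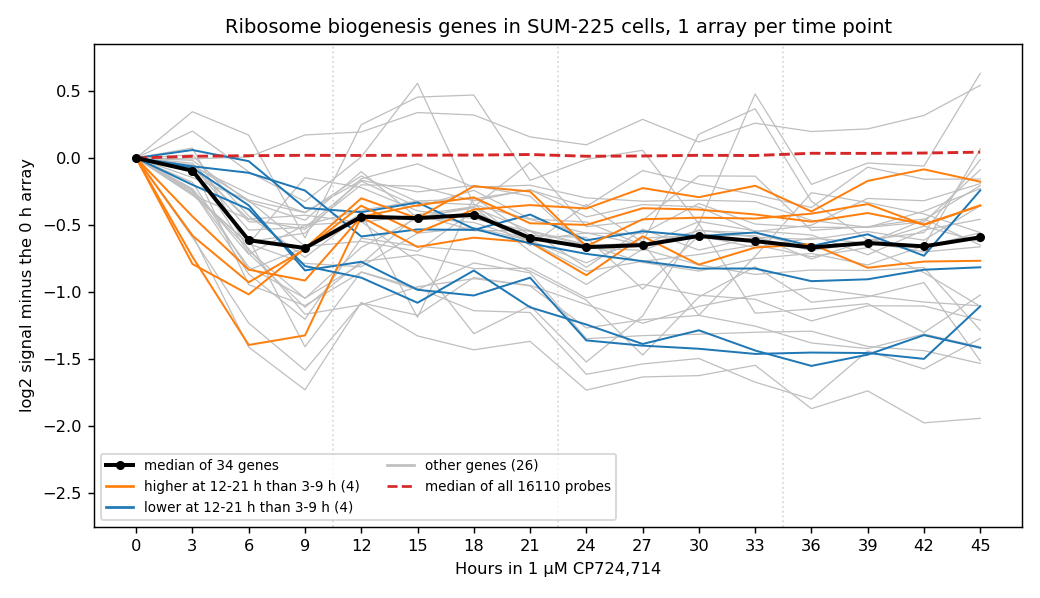
Log2 signal minus that of the 0 h array (y axis) for the 34 genes against hours in 1 µM CP724,714 (x axis). Each thin line is a gene, the black line is their median, the red dashed line is the median of all 16110 tested probes, and dotted verticals separate the sets of 4 arrays. The black line reaches -0.67 at 9 h and stands at -0.44 on the 12 h array and -0.59 on the last, while the red line stays near 0. Orange and blue lines are the genes that rose or fell past the threshold from 3-9 h to 12-21 h.

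Tests were made with limma on all tested probes, with Benjamini-Hochberg adjustment and a threshold of 0.05 for the adjusted p. A gene depended on time if a cubic course in hours fitted better than a constant, and 23 of the 34 members did so, against 51.3% of all probes. The course of 12 members was curved (background 19.3%), that is, a straight line did not describe it. The linear change over 45 h was downward past the threshold for 20 members (background 21.7% of probes) and upward for 2 (26.0%). Its median over the members was -0.42 and 28 of 34 estimates were below 0. Over all 16110 probes the median was 0.05 and 7425 estimates were below 0. POLR1D and MKI67IP were the members that rose. With the sets of 4 arrays as a factor, which leaves 9 h within each set, 0 members fell past the threshold and the median was -0.88. The share of all probes that fell with this factor was not counted. With a step between 9 and 12 h in the fit the median was -0.95.

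Averaged over windows of neighbouring hours, 6 members were lower at 3-9 h than at 0 h past the threshold (background 1.19%) and 0 were higher (1.14%). The median difference was -0.45, and 33 of 34 estimates were below 0, against 7736 of those of all 16110 probes. At an unadjusted p under 0.05 there were 21, or 61.8%, against 16.1% of all probes. The 6 were RRS1, LYAR, BYSL, IMP3, NIP7 and MKI67IP. With 3 h as a level of its own 21 members were lower at 6-9 h than at 0 h past the threshold (background 5.83%) and 0 were higher (5.34%). With array weights the count at 3-9 h was 0, and with median scaling it was 3 (RRS1, BYSL and LYAR). The shares of all probes with these settings were not counted.

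From 3-9 h to 12-21 h 4 members rose (background 14.8%) and 4 fell (12.9%), and the median of -0.04 was close to the 0.04 of all probes. RRS1, IMP3, NIP7 and MKI67IP rose, and these 4 were also among the 6 that had fallen at 3-9 h. BOP1, NOL5A, EBNA1BP2 and FBL fell. Against 6-9 h in place of 3-9 h, 8 members rose (background 11.8%) and 3 fell (11%), and the median was 0.15. The members that then rose were RRS1, IMP3, NIP7, MKI67IP, LYAR, DDX10, DDX21 and POLR1C. Whether the window counts as a rise for the group thus turned on the 3 h array. With median scaling of the arrays, 1 member rose from 3-9 h to 12-21 h (RRS1) and 7 fell, including the 4 named above, whose differences were then between -0.87 (FBL) and -1.01 (BOP1). The median with this scaling was -0.29 over the members and -0.11 over all probes. Of all calls 25.6% were then higher, against 53.4% in the main fit. With 0 h in the first window 1 rose, POLR1D, and 0 of the 4 above. The 3-9 h window serves both this difference and the one before it, so the members low in it enter both.

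RRS1, a factor that brings the 5S particle into the large subunit, had log2 signals of 11.14, 10.41, 9.75 and 9.82 from 0 to 9 h. It stood at 10.70, 10.48, 10.55 and 10.51 on the arrays from 12 to 21 h, at 10.27, 10.56, 10.35 and 10.48 from 24 to 33 h, and at 10.50, 10.32, 10.37 and 10.38 from 36 to 45 h. All 4 arrays from 12 to 21 h thus lay above all 3 from 3 to 9 h, and none returned to the 0 h level. Such an upward separation of these windows was found in 3 members (8.82%), against 15.9% of all probes. RRS1 was named for its difference between these windows, so the separation is not further evidence. The fall at 3-9 h was -1.15 ± 0.19 (SE; limma, adjusted p = 0.00214) and the later rise 0.57 ± 0.13 (adjusted p = 0.00271). Both were past the threshold with median scaling too, but the rise was not with 0 h in the first window (0.28, adjusted p = 0.317). The step from 9 to 12 h, 0.88, was the largest of any member.

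IMP3, a protein of the small subunit processome, had signals of 13.82, 13.03, 12.80 and 13.14 from 0 to 9 h. Its arrays from 12 to 21 h were at 13.52, 13.37, 13.61 and 13.57, those from 24 to 33 h at 13.16, 13.36, 13.37 and 13.37, and those from 36 to 45 h at 13.40, 13.47, 13.32 and 13.46. IMP3 was lowest at 6 h and had begun to go up at 9 h, within the first set of arrays. Its fall was -0.83 ± 0.13 (limma, adjusted p = 9.06e-04) and its later rise 0.52 ± 0.08 (adjusted p = 1.37e-04). With median scaling neither was past the threshold, at -0.76 (adjusted p = 0.178) and 0.082 (adjusted p = 0.774), and with 0 h in the first window the rise was 0.32 (adjusted p = 0.0953).

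MKI67IP (NIFK), a nucleolar protein that binds Ki-67 and acts in large subunit RNA processing, followed a like course and ended nearest its 0 h level of the genes that rose. It was at 12.16, 11.58, 11.24 and 11.48 from 0 to 9 h, and at 11.81, 11.61, 11.78 and 11.81 from 12 to 21 h. From 24 to 33 h it stood at 11.79, 11.94, 11.87 and 11.95, and from 36 to 45 h at 11.76, 11.99, 12.08 and 11.99. All later arrays were above the 3 to 9 h arrays and below the 0 h array. The fall was -0.73 ± 0.14 (limma, adjusted p = 0.00849), the rise to 12-21 h 0.32 ± 0.10 (adjusted p = 0.0181) and the linear change 0.38 ± 0.14 (adjusted p = 0.0286). The linear estimate turned negative with a step between 9 and 12 h in the fit (-0.27, adjusted p = 0.387), and it missed the threshold without any of the 3, 6, 9, 39 or 42 h arrays. The rise to 12-21 h missed it without the 6 or the 21 h array, with median scaling (0.066, adjusted p = 0.776) and with 0 h in the first window (0.13, adjusted p = 0.493). The fall missed it with median scaling (-0.71, adjusted p = 0.0905).

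NIP7, a large subunit factor, had signals of 13.45, 13.02, 12.62 and 12.54 from 0 to 9 h. It stood at 13.02, 13.10, 13.16 and 12.97 from 12 to 21 h, and every array from 24 h on lay between 12.96 and 13.10. The 12 to 21 h arrays overlapped the 3 to 9 h arrays through the 3 h value. The fall was -0.73 ± 0.14 (limma, adjusted p = 0.00638) and the rise 0.33 ± 0.09 (adjusted p = 0.0103). With median scaling in place of quantile normalization the difference was -0.08 (adjusted p = 0.804), and the fall was -0.66 (adjusted p = 0.309). The rise also missed the threshold without the 6 or the 9 h array and with 0 h in the first window (0.15, adjusted p = 0.42).

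BOP1, a scaffold of the PeBoW complex that matures the large subunit, shared the drop from 0 to 9 h but fell from 3-9 h to 12-21 h. It was at 14.27, 14.20, 13.92 and 13.43 from 0 to 9 h, then at 13.50, 13.29, 13.25 and 13.38 from 12 to 21 h. It went on to 12.91, 12.87, 12.85 and 12.81 from 24 to 33 h and 12.82, 12.82, 12.77 and 13.17 from 36 to 45 h. There was almost no change from 9 to 12 h (0.06), and the level went down again at 24 h. The differences were -0.50 ± 0.13 to 12-21 h (limma, adjusted p = 0.00692) and -0.49 ± 0.12 to 24-33 h (adjusted p = 0.0117), and the linear change was -1.35 ± 0.10 (adjusted p = 3.49e-09). Without the 3 h array the fall to 12-21 h was no longer past the threshold.

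NOL5A (NOP56), a core protein of the box C/D snoRNPs that guide methylation of ribosomal RNA, also fell throughout. Its signals were 14.10, 13.90, 13.72 and 13.29 from 0 to 9 h, followed by 13.21, 13.02, 13.26 and 12.98 from 12 to 21 h. It was 12.86, 12.71, 12.81 and 12.66 from 24 to 33 h and 12.55, 12.63, 12.78 and 12.68 from 36 to 45 h. All 12 to 21 h arrays were below all 3 to 9 h arrays, and all 24 to 33 h arrays below those of 12 to 21 h. The first of these separations was found in 2 members, NOL5A and FBL (5.88%), against 15.4% of all probes. The changes between these windows were -0.52 ± 0.11 (limma, adjusted p = 0.00173) and -0.36 ± 0.10 (adjusted p = 0.033), and the linear change was -1.35 ± 0.09 (adjusted p = 7.85e-10). The fall to 24-33 h missed the threshold without any of the 12, 18, 27, 30 or 33 h arrays.

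EBNA1BP2, a large subunit factor, hardly moved in the first hours. It was at 14.71, 14.77, 14.69 and 14.34 from 0 to 9 h, at 14.31, 14.38, 14.19 and 14.08 from 12 to 21 h, around a mean of 13.93 from 24 to 33 h and at 13.79, 13.81, 13.88 and 13.90 from 36 to 45 h. Its difference at 3-9 h was -0.11 ± 0.13 (adjusted p = 0.728), and it then fell by 0.36 to 12-21 h (SE 0.09; limma, adjusted p = 0.00437) and by 0.31 to 24-33 h (SE 0.08; adjusted p = 0.0203), the second not past the threshold without the 12, 15, 30 or 33 h array. FBL, fibrillarin, the methyltransferase of the box C/D snoRNPs, was at 13.80, 13.74, 13.69 and 13.56 from 0 to 9 h and at 13.22, 13.27, 13.27 and 13.38 from 12 to 21 h. The arrays of these windows did not overlap, and the step from 9 to 12 h, -0.34, was the lowest of any member. FBL fell by 0.38 ± 0.09 between the windows (limma, adjusted p = 0.00377) and then stayed between 13.08 and 13.56.

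**Figure D2:**
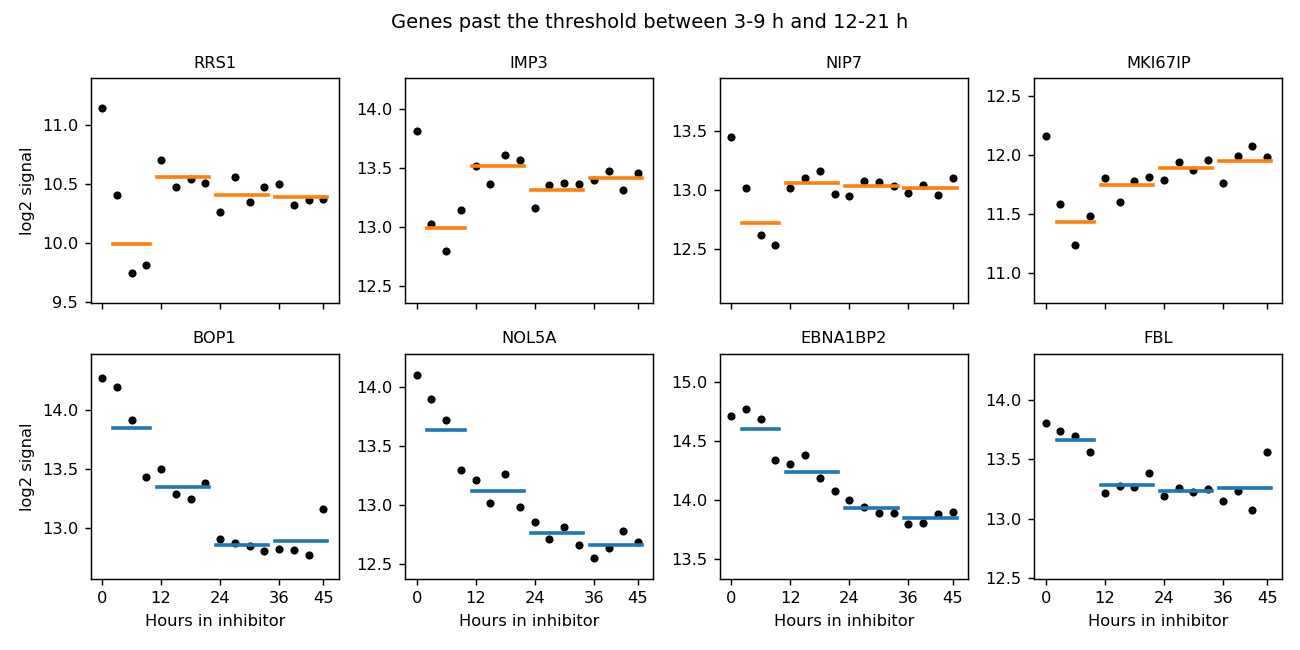
Log2 signal (y axis) against hours in the inhibitor (x axis) for the genes past the threshold between 3-9 h and 12-21 h. Points are single arrays and bars are window means, orange for genes that rose and blue for genes that fell, and every panel spans the same number of log2 units. RRS1, IMP3, NIP7 and MKI67IP dip at 6 to 9 h and recover in part, whereas BOP1, NOL5A and EBNA1BP2 go on down. Of all probes 14.8% rose and 12.9% fell past the threshold between these windows. FBL steps down at 12 h and then lies between 13.08 and 13.56.

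The stretch of 250 bases before the transcription start is shown for the 6 of these genes with an entry in the RefSeq promoter table (GRCh38.p14), so that the genes that rose can be read beside those that fell. Capitals mark CACGTG, the E-box bound by MYC and its partners, and CCGGAAG, read on either strand, a core bound by ETS factors. Each line reads 5′ to 3′ on the strand of the gene.
IMP3, chr15:75640225-75640474, minus strand: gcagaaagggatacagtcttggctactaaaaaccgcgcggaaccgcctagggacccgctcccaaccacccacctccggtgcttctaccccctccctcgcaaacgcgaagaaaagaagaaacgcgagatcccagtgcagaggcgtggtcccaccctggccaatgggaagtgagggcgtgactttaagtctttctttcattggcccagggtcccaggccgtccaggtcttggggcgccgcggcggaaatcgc
NIP7, chr16:69339522-69339771, plus strand: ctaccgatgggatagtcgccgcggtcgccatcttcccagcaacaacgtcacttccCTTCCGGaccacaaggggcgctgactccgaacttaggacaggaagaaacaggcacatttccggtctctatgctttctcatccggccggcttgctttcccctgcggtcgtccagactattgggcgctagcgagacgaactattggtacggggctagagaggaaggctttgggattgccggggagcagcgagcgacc
MKI67IP (NIFK), chr2:121736876-121737125, minus strand: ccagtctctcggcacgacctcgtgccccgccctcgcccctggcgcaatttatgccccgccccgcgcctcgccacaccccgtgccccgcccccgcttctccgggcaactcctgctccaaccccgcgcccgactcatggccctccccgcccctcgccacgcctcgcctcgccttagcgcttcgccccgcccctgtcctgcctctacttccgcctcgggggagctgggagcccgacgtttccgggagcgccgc
FBL, chr19:39846380-39846629, minus strand: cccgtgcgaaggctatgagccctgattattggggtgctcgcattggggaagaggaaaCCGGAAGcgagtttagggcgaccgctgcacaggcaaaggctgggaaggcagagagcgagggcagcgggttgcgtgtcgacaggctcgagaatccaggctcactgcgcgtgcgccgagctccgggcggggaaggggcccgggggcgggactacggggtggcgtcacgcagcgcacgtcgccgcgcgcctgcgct
NOL5A (NOP56), chr20:2652382-2652631, plus strand: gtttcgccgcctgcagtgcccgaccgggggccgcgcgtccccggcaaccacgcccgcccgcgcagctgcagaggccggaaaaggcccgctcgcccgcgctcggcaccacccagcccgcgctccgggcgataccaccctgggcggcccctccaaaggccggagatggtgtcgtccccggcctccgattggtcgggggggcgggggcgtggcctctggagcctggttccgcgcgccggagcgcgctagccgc
EBNA1BP2, chr1:43172571-43172820, minus strand: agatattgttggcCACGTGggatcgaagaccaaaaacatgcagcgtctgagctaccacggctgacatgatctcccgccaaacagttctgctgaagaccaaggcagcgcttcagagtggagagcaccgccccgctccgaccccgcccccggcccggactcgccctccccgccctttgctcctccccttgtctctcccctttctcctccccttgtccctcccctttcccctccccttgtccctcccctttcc
CACGTG was found in the promoter of EBNA1BP2, 237 bases before the start. CCGGAAG was found in the promoters of FBL, 193 bases before the start, and NIP7, 195 bases before it. The promoters of IMP3, NOL5A and MKI67IP held neither run of letters in this window. Counted on both strands, CACGTG was in 3 of the 28 member promoters in the table (EBNA1BP2, NAT10 and IMP4), or 10.7%, against 6.49% of all 27305 promoters. CCGGAAG was in 7 (FBL, POLR1B, POLR1C, DDX21, NIP7, WDR3 and WDR74) of the 28, against 8.82% of all promoters. These motifs do not overlap each other, and no binding was measured in these cells.

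By role, all 5 tested snoRNP proteins fell over the course (background 21.7%), with a median linear change of -0.90. Beside NOL5A and FBL these were NOLC1, a scaffold of snoRNPs, DKC1, the pseudouridine synthase dyskerin of the box H/ACA snoRNPs, and NOP5/NOP58, the partner of NOL5A in box C/D. NOLC1 was at 10.66, 10.60, 9.72 and 9.56 from 0 to 9 h, and its window ranges were 9.68 to 9.88 at 12-21 h, 9.32 to 9.36 at 24-33 h and 9.13 to 9.37 at 36-45 h. It thus dropped between 3 and 6 h and again at 24 h. Its linear change was -1.20 ± 0.16 (limma, adjusted p = 4.9e-06), those of DKC1 and NOP5/NOP58 were -0.90 ± 0.13 and -0.64 ± 0.17, and that of FBL was -0.47 ± 0.10. With a step between 9 and 12 h in the fit, the call of FBL was lost (-0.20, limma adjusted p = 0.439). DKC1 was 1.11 below its 0 h value at 9 h.

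Of the 3 tested nucleolar RNA-binding proteins, 2 fell over the course (background 21.7%). LYAR, a nucleolar zinc finger protein, was at 11.95, 11.36, 10.72 and 10.37 from 0 to 9 h, then between 10.78 and 11.06 at 12-21 h, 10.69 and 10.78 at 24-33 h and 10.53 and 10.64 at 36-45 h. The 9 h array was its lowest of all 16. The fall at 3-9 h was -1.13 ± 0.23 (limma, adjusted p = 0.00912) and the linear change -0.73 ± 0.18 (adjusted p = 0.00253), which was lost when the 0 h array was left out (-0.41, adjusted p = 0.0708). NCL, nucleolin, an abundant RNA-binding protein of the nucleolus, went from 14.49 on the 0 h array to 13.83 on the 9 h array and 13.38 on the last. Its window ranges overlapped from 12 h on, and its linear change was -0.71 ± 0.09 (adjusted p = 3.41e-06). DDX21, an RNA helicase, went from 12.28 at 0 h to 11.23 at 9 h, with a linear change of -0.33 ± 0.16 (adjusted p = 0.0933).

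Of 7 small subunit factors, 5 fell over the course (background 21.7%) and 0 rose (26.0%), with a median linear change of -0.44. BYSL, bystin, needed for late steps of small subunit maturation, was at 11.68, 11.11, 10.27 and 9.95 from 0 to 9 h. It reached 10.61 at 12 h, lay between 10.25 and 10.36 on the other arrays of that window, and ended between 9.71 and 9.95 at 36-45 h. Its range of 3.93-fold was the widest of the members. The fall at 3-9 h was -1.24 ± 0.27 (limma, adjusted p = 0.0172) and the linear change -1.28 ± 0.18 (adjusted p = 1.04e-05). The call at 3-9 h was lost without the 6 h array.

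WDR3, a protein of the small subunit processome that was detected on 13 arrays, changed by -0.93 ± 0.23 over the course (adjusted p = 0.00247), from 7.29 at 0 h to 6.27 at 45 h. WDR3 was dim, and its change was -0.35 without background correction. IMP4, the partner of IMP3, was at 14.33, 14.27, 14.06 and 13.92 from 0 to 9 h, between 14.04 and 14.16 at 12-21 h and between 13.64 and 13.79 at 24-33 h. The 9 h array was 0.41 below that of 0 h, and the arrays of the second day were again lower. IMP4 fell by 0.39 from 12-21 h to 24-33 h (SE 0.07; limma, adjusted p = 0.00161), which was not past the threshold with median scaling (-0.22), and by 0.52 ± 0.10 over the course. NAT10, which acetylates ribosomal RNA, and HEATR1, a processome scaffold, fell by 0.44 ± 0.12 and 0.39 ± 0.12. HEATR1 was at its highest on the 45 h array (11.77), whereas its other arrays from 24 h on were between 10.86 and 11.06, and its call was lost without the 0 (-0.26) or the 3 h array and was larger without the 45 h array (-0.72). DDX10, an RNA helicase, had a linear change of -0.18 ± 0.14 (adjusted p = 0.321).

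Of the 13 large subunit factors, 7 fell over the course (background 21.7%) and 1 rose (26.0%). C1orf33 (MRTO4), which holds a place on the nascent large subunit, had the largest linear change of the members, -1.37 ± 0.17 (limma, adjusted p = 1.6e-06). Its signals were 11.89, 11.80, 11.29 and 10.48 from 0 to 9 h, 11.04, 10.92, 10.75 and 10.74 from 12 to 21 h, and between 10.09 and 10.55 afterwards. It went up by 0.56 from 9 to 12 h and down by 0.46 from 21 to 24 h.

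The partners of BOP1 in the PeBoW complex were not alike. WDR12 fell by 0.67 ± 0.11 (adjusted p = 7.15e-05), from 12.21 at 0 h to 11.05 at 9 h, and lay between 10.98 and 11.31 on all later arrays. Without the 0 h array its change was -0.43 (limma, adjusted p = 0.0107). PES1 was at 9.68 at 0 h and 9.47 at 45 h, with a linear change of -0.10 ± 0.19 (adjusted p = 0.692). PPAN, WDR74 and the GTPase GNL3, nucleostemin, also fell, with linear changes of -0.84 ± 0.20, -0.30 ± 0.10 and -0.53 ± 0.12, as did EBNA1BP2 with -0.98 ± 0.07. The call of WDR74 was lost without the 0 or the 3 h array, and its change was -0.47 without the 45 h array. The GTPase GNL2 and the helicase DDX18 had linear changes of -0.22 ± 0.10 (adjusted p = 0.0758) and 0.08 ± 0.10 (adjusted p = 0.544). Over the course RRS1 and NIP7 had linear changes of -0.04 ± 0.22 and 0.05 ± 0.14, neither past the threshold.

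In the RNA polymerase I group 1 of 6 tested genes rose over the course (background 26.0%) and 1 fell (21.7%). Neither count exceeded the share of all probes. POLR1D, a subunit shared with RNA polymerase III, was at 13.72, 13.71, 13.73 and 13.89 from 0 to 9 h, between 13.88 and 14.06 at 12-21 h, between 13.82 and 14.01 at 24-33 h, and at 13.92, 13.94, 14.04 and 14.26 from 36 to 45 h. It was the member whose 9 h array was above its 0 h array, and its linear change was 0.31 ± 0.07 (limma, adjusted p = 0.00167). The rise was lost with median scaling (0.19, adjusted p = 0.488), with a step between 9 and 12 h (0.15, adjusted p = 0.49) and with the set as a factor (0.69, adjusted p = 0.34). POLR1C, the other shared subunit, was at 12.52 on the 0 h array, 11.99 on the 9 h array and 12.33 on the last, and its linear change was -0.11 ± 0.11 (adjusted p = 0.449).

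UBTF, the HMG-box activator of polymerase I, went from 9.07 at 0 h to 8.42 at 45 h, with a linear change of -0.39 ± 0.15 (adjusted p = 0.0353) that was lost without any of the 0, 3, 36, 39 or 45 h arrays. POLR1A and POLR1B, the catalytic subunits, and TCOF1, treacle, which links polymerase I transcription to processing, were dim. POLR1A lay between 5.62 and 6.83, POLR1B between 5.44 and 6.66 and TCOF1 between 5.36 and 6.54. Whether the low signal hid changes of these genes was not tested. Their linear changes were -0.34 ± 0.30, 0.03 ± 0.28 and -0.35 ± 0.23, none past the threshold.

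**Figure D3:**
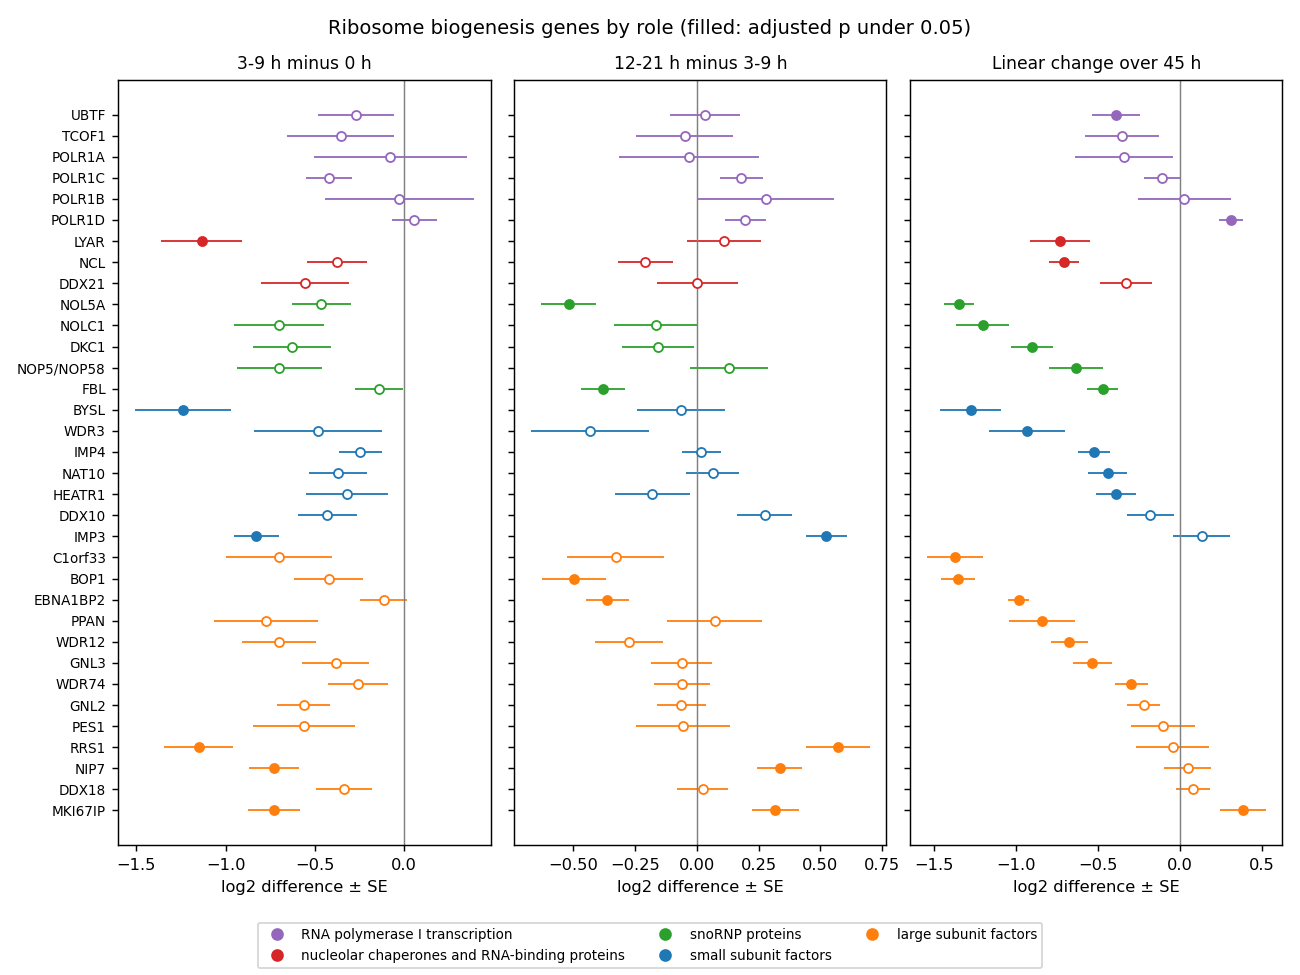
Log2 differences ± SE (x axis) for the 34 genes (rows, grouped by role and ordered by linear change): 3-9 h minus 0 h, 12-21 h minus 3-9 h, and the linear change over 45 h. Filled points have a limma adjusted p under 0.05. In the left panel 33 of 34 points lie below 0, in the middle panel 16 lie above and 18 below, and in the right panel 28 lie below 0.

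On the second day 4 members fell from 12-21 h to 24-33 h (background 4.11%) and 0 rose (5.2%), with a median of -0.19. Of the 34 estimates 30 were below 0, against 8376 of those of all 16110 probes. BOP1, NOL5A, EBNA1BP2 and IMP4 were those that fell, and with median scaling 0 did. In 14 members all 24 to 33 h arrays were below all 12 to 21 h arrays, or 41.2% against 9.4% of probes. From 24-33 h to 36-45 h 0 members rose (0.9%) or fell (3.11%) past the threshold in limma, 1 (TCOF1) had an unadjusted p under 0.05, and the median was -0.01. The groups of arrays did not overlap for DKC1, BYSL and LYAR, each lower at 36-45 h (8.82% of members against 6.19% of probes).

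Where a gene had several tested probes the brightest was used, and others did not always give the same call. The second POLR1C probe was past the threshold at 3-9 h (-0.55 ± 0.12, adjusted p = 0.0195) and from there to 12-21 h (0.26 ± 0.08, adjusted p = 0.0222), where the brighter probe had -0.42 and 0.18 and was not. The other UBTF probes had linear changes of 0.28 ± 0.19 and -0.01 ± 0.28, so that the fall of UBTF rests on 1 probe of 3. Of the WDR74 probes, 2 fell over the course and the dimmest had 0.07 ± 0.15, and this dimmest probe rose from 3-9 h to 12-21 h by 0.37 ± 0.14 (limma, adjusted p = 0.0488). Of the GNL3 probes 2 fell and 1 had -0.35 ± 0.15 (adjusted p = 0.0695). Both TCOF1 probes missed the threshold.

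Older symbols on the array cover 3 of the names without a probe. D21S2056E (RRP1) was detected on 1 array and was not tested. RNU3IP2 (RRP9), a snoRNP protein, had signals of 8.72, 8.90, 6.67 and 7.03 from 0 to 9 h and 8.09 at 12 h, and its linear change was -0.44 ± 0.36 (limma, adjusted p = 0.337). KIAA0690 (RRP12) had 10.48, 10.40, 9.95 and 9.79 over the same hours and 10.34 at 12 h, and it fell by 0.52 ± 0.17 over the course (adjusted p = 0.0163). Both tested genes were low at 6 to 9 h and higher at 12 h, and they are not counted among the 34.

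A wider list of 96 tested biogenesis factors that are not among the members had a flatter course of the same outline. Its median difference from 0 h was -0.13, -0.34, -0.42 and -0.23 on the arrays from 3 to 12 h and -0.28 on the last. At the step from 9 to 12 h 74 of 96 went up (51.6% of all probes did), with a median of 0.17. Over the course 31 fell (background 21.7%) and 7 rose (26.0%), with a median linear change of -0.19. At 3-9 h 9 were lower (background 1.19%) and 0 higher (1.14%) than at 0 h. From there to 12-21 h 13 rose (background 14.8%) and 6 fell (12.9%). The largest falls were those of EMG1, a methyltransferase of the small subunit (-1.03 ± 0.09), the RNA exosome subunit EXOSC2 (-1.01 ± 0.12) and RBM28 (-0.95 ± 0.13). The largest rises were those of MDN1, an ATPase that remodels the large subunit and was detected on 4 arrays (0.73 ± 0.26), PWP2H (0.63 ± 0.24) and JOSD3 (0.57 ± 0.19), with limma adjusted p values of 0.0259, 0.0338 and 0.0179.

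The genes of the ribosomal proteins themselves did not share the early drop. The median of 75 tested genes stayed between 0.00 and 0.05 of the 0 h array at all time points. At 3-9 h 0 rose (background 1.14%) and 0 fell (1.19%) in limma, with 4 at an unadjusted p under 0.05 (16.1%). From 9 to 12 h 41 of 75 went up (51.6% of all probes did), with a median step of 0.01. Of these probes 51 came within 1 log2 unit of the brightest probe of an array, against 0 of the members, and changes of such bright probes may be compressed. Over the course 12 fell (background 21.7%) and 1 rose (26.0%), with a median of -0.01. RPS7 (-3.21 ± 0.12), RPL36A (-2.55 ± 0.15) and RPL29 (-2.32 ± 0.14) fell most and RPL13A rose by 0.97 ± 0.11. Ribosomal protein genes have many near-identical pseudogene copies, so the transcript behind a probe is uncertain.

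**Figure D4:**
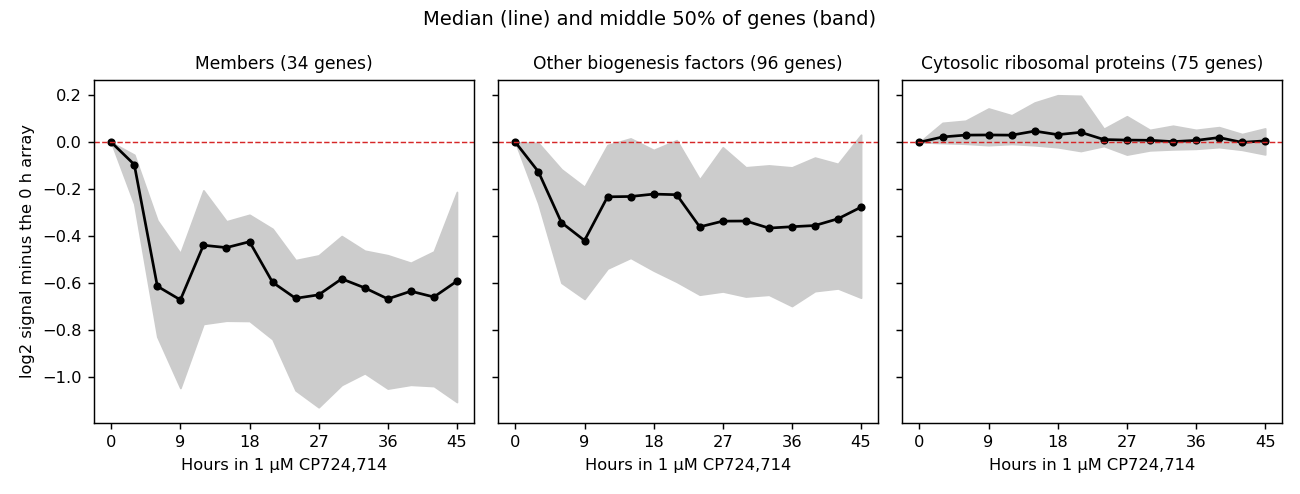
Log2 signal minus the 0 h array (y axis) against hours in 1 µM CP724,714 (x axis) for the 34 members, 96 other biogenesis factors and 75 cytosolic ribosomal proteins. Lines are medians over genes and bands hold the middle 50% of genes. The medians at 9 h are -0.67 for the members and -0.42 for the other factors, while that of the ribosomal proteins stays near 0.

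MYC, whose protein is known to activate many of these genes, dropped sooner and further. Its signals were 11.06, 8.17, 8.66 and 9.15 from 0 to 9 h, 10.40 at 12 h and 9.42 at the end. It was lowest at 3 h, when the members' median was at -0.10, and it had gone up at 6 and 9 h while the members' median was going down. MYC fell by 2.40 ± 0.29 at 3-9 h (limma, adjusted p = 8.14e-05), rose by 1.37 ± 0.19 to 12-21 h (adjusted p = 3.74e-05) and fell by 0.69 ± 0.18 to 24-33 h (adjusted p = 0.0186). Whether the signals of MYC and of the members are connected was not tested.

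The members resembled each other to different degrees. The Pearson correlation of each gene with the median course of the others, over the same 16 arrays, was above 0.7 for 20 of 34 genes and highest for BYSL (0.95), DKC1 (0.94), GNL3 (0.94) and C1orf33 (0.94). It was lowest for POLR1D (-0.45), MKI67IP (0.05) and IMP3 (0.26). These values describe shared time courses on shared arrays and carry no test.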

How the data were processed

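RNA of 16 cultures was hybridised to an Illumina bead array, 1 per time point. The deposited table gives linear signal intensity per probe and array, without background subtraction or normalization by the authors, and a deposited detection p-value. 0 columns were left unmapped, and the genome build and scanning software are not given in the sources used here. The study's methods name quantile normalization. Signals were corrected with neqc of limma 3.58.1 in R 4.3.3 (negative controls inferred from the detection p, offset 16, quantile normalization, log2). Probes detected on at least 3 arrays were fitted with a cubic in hours, and with the 5 windows 0, 3-9, 12-21, 24-33 and 36-45 h, by lmFit and eBayes with trend, two-sided, adjusted by Benjamini-Hochberg over 16110 probes. The fits were run on simulated data with independent noise around a flat level. They recovered 85% of added linear changes and 85.5% of added steps of 1 log2 unit, and 3.41% and 5% of the calls were false. The simulation held no correlation of neighbouring arrays, no sets and no normalization, so it cannot show how such features affect the errors here. Arrays have no read depth, and precision is set by how few arrays there are.

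The members, windows and lists were chosen with earlier results of these data known. Named by rule were, per role, the 2 members with the largest change over 45 h and from 3-9 h to 12-21 h, members past the threshold against the majority, the 3 largest changes per direction of each other list, MYC, and the 5 genes of most similar course. NIP7, EBNA1BP2 and the remaining members were described after their values were seen. Gene symbols are those of the table, matched to RefSeq (GRCh38.p14) for all 42 names. Alternatives were no background correction, an offset of 50, median scaling, cyclic loess, other filters, array weights, probe means, other time terms and windows, and each array left out. A level of its own for 3 h was added after the data were seen. Plots used matplotlib 3.10.9 and Python 3.11.15.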

Additional observations from a re-analysis of the deposited data

How the results depend on the processing

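Of 433 recomputed values of the main results 400 were counted as kept, which includes medians near 0 whose sign or size changed. The median from 3-9 h to 12-21 h, for example, was -0.04 in the main fit, 0.01 with probe means and -0.17 with array weights. Of 918 recomputed values of members past the threshold 835 kept their call, 78 kept direction but missed the threshold and 5 changed sign. For the linear change, the number of members that rose was 0 with median scaling, with the 12 h set as a factor and with a step between 9 and 12 h, and 1 with cyclic loess. With the set as a factor 0 members fell and the median was -0.88, and with the step the median was -0.95. FBL, HEATR1 and MKI67IP then had linear changes of 0.35 (adjusted p = 0.742), 0.049 (0.986) and -0.38 (0.839) with the set as a factor, and MKI67IP -0.27 with the step. At 3-9 h, 3 members fell with median scaling, 0 with array weights and 21 with 3 h as its own level. From 3-9 h to 12-21 h, 1 member rose with median scaling (RRS1), 1 with 0 h in the first window (POLR1D, none of the 4 reported) and 8 with 3 h as its own level, 7 fell with median scaling and 9 with array weights, and the median was -0.29 and 0.15 with median scaling and 3 h as its own level. NIP7 had -0.077 there with median scaling. Median scaling also moved the median of all probes there to -0.11 (members -0.18 relative to it) and the share of higher among all calls from 53.4% to 25.6%, and from 55.8% to 73.7% at 24-33 h, where 0 members then fell. Without a filter 1 member rose at 36-45 h. The causes were not tested. The set factor leaves only 9 h within each set, and whether this lowered the counts was not tested either.

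With each array left out, 18 to 24 members depended on time, 1 to 3 rose and 16 to 22 fell linearly (median -0.52 to -0.35), and 5 to 21 fell at 3-9 h (median -0.59 to -0.35; 21 without 3 h). From there to 12-21 h 2 to 8 rose (8 without 3 h, 2 without 6 h) and 3 to 8 fell (8 without 9 h), with a median of -0.14 to 0.15. At 24-33 h 2 to 8 fell (8 without 3 h, 2 without 12, 30 or 33 h), and the linear rise was left in 1 member without 3, 6, 9, 39 or 42 h. Without the 0 h array the 3-9 h difference, and without 9 or 12 h the step between them, could not be computed. No paired analysis was possible because there was a single array at every time point.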

Other observations

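Outside the lists used above, the 5 probes whose course was most like the members' median over the 16 arrays belonged to GPATCH4 (Pearson r 0.96), B3GALT3 (0.96), B3GALNT1 (0.95), STIP1 (0.95) and LARS2 (0.95). B3GALT3 and B3GALNT1 are 2 symbols of the table for 1 RefSeq gene, a glycosyltransferase. GPATCH4 had log2 signals of 12.73, 11.55, 12.10 and 11.83 on the arrays of 0, 9, 12 and 45 h, and its linear change was -0.53 ± 0.15 (limma, adjusted p = 0.00718). STIP1, a co-chaperone of the HSP70 and HSP90 machinery, had 13.69 and 12.48 on the arrays of 0 and 9 h and 12.35 on the last, and its linear change was -1.04 ± 0.17 (adjusted p = 4.26e-05). LARS2, the mitochondrial leucyl-tRNA synthetase, had 9.80, 9.07, 9.49 and 9.29 on the same arrays as GPATCH4. The correlations describe shared arrays and carry no test.

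CACGTG was in the promoters of 17 of the 82 other biogenesis factors in the RefSeq table (20.7%), against 10.7% of the members' and 5.0% of the promoters of 60 ribosomal protein genes.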
